A study of Mus musculus with 168 samples.

Results

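The genes described here encode the proteins that steer the splicing of messenger RNA, namely the SR proteins, the Tra2 and Rbm proteins, the hnRNPs and several parts of the spliceosome. A list of 43 such genes was drawn up by name, and every probe set that the platform annotation assigns to 1 of them alone was kept. This gave 159 probe sets for 40 of the 43 genes, among 45037 probe sets and 18193 genes with a probe set of their own on the array. Srsf7 was not analysed here, and Rbm10 and Hnrnpa3 were left out because their probe sets are also annotated to another gene. Of the 40 genes, 32 have 2 or more probe sets, which makes 151 probe sets that can be set against another of the same gene.

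The mice were C57BL/6, 8 to 9 weeks old, and hypoxia was 8% oxygen, given for 1 hour (H1) or 3 hours (H3). In the groups named R1, R3, R6, R12 and R24 the 3 hours were followed by reoxygenation of that many hours, and sham mice were the controls. With 3 mice per group and 7 brain regions taken from each (cerebellum, midbrain, striatum, cortex, thalamus, hippocampus, and pons with medulla), there were 168 arrays, 24 per region. By the methods the mice were male and the sham mice spent 3 hours in the chamber with room air and then 24 hours in the home cage. Recent handling and hour of day therefore cannot be told apart from hypoxia and reoxygenation at H1, H3, R1, R3, R6 and R12. The labels give the time point of the controls as 0 hours, so that even at R24 a match rests on the methods alone. The values are linear intensities scaled to a trimmed mean of 125 on every array, and they were taken to log2(intensity + 16), a scale on which changes of dim probe sets are understated.

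Splicing factors act by binding short stretches of a transcript. SR proteins have a domain rich in arginine and serine and mostly favour the use of an exon when bound within it, whereas many hnRNPs favour skipping, and the Tra2 and Rbm proteins work beside both. Many of these genes control their own amount by splicing a poison exon or a retained intron into their own transcript, so that a gene can give coding and noncoding transcripts at the same time. For such a gene 2 probe sets can measure different transcripts. Where each probe set lies in its gene was not analysed here, so that a difference between probe sets is given as a difference in signal only.

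The sequences before the start sites of 4 genes are shown because Rbm5 and Tra2a carry the most frequent falls of the list, and because Srsf5 and Srsf6 rose in the mean of the regions at H3, R1 and R3. Each runs from 250 bases before to 50 bases after the start in RefSeq on GRCm38.p6, at chr9:107770953-107771252 (- strand) for Rbm5, chr6:49264003-49264302 (- strand) for Tra2a, chr12:80945249-80945548 (+ strand) for Srsf5 and chr2:162931258-162931557 (+ strand) for Srsf6. Capitals mark matches on either strand to the hypoxia response core ACGTG, the cAMP response element TGACGTCA and its shorter form TGACG, which lies within it, the forkhead core GTAAACA and the heat shock pair GAANNTTC.
Rbm5: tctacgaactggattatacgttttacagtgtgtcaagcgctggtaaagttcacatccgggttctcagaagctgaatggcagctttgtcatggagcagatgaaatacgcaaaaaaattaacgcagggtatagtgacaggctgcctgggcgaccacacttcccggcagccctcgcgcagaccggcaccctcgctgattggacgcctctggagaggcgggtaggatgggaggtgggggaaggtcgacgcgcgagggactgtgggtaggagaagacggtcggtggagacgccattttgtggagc
Tra2a: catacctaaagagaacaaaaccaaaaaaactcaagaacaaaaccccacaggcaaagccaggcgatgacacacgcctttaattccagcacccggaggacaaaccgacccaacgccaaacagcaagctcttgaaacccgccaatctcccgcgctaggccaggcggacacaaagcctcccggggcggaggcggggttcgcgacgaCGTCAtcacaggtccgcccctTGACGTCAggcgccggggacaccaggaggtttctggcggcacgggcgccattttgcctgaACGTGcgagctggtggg
Srsf5: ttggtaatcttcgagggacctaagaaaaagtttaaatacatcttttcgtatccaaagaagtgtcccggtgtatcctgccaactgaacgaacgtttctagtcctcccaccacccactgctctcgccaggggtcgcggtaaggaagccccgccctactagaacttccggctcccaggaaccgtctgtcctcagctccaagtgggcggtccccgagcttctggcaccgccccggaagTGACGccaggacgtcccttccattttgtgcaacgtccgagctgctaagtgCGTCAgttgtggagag
Srsf6: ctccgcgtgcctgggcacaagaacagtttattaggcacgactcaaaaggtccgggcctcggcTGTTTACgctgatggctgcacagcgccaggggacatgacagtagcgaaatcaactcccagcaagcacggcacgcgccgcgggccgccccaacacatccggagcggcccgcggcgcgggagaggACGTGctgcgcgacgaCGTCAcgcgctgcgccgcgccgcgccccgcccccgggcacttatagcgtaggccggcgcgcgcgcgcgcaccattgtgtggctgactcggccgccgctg
No capital stands in the Rbm5 window. The Tra2a window holds ACGTG, the full TGACGTCA and a further TGACG, the Srsf5 window holds TGACG at 2 places, and the Srsf6 window holds the hypoxia response core, TGACG and the forkhead core. Of the 43 genes, 41 have a window, 55 windows in all. TGACG was present in 52.7% of these and in 20.8% of the 32851 windows of all genes, ACGTG in 32.7% and 19.6%, GAANNTTC in 10.9% and 7.86%, GTAAACA in 5.45% and 3.65%, and TGACGTCA in 1.82% and 1.79%. The windows of the list also had more G and C, with a median of 62.7% against 52.7%, and the part of this in the shares was not tested.

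Some splicing factors changed during 3 hours of hypoxia and the first hour of reoxygenation, and within the same gene some probe sets were called while others were not. Only 1 gene, Hnrnpdl, had probe sets called in both directions, at R1, where its falls were lost in 11 of 12 fits with a number or value left out. Tra2a and Hnrnpdl held the largest falls at H3, and Rbm5 fell in every region at R1. Srsf5 and Srsf6 1416721_s_at rose at H3, R1 and R3, and their rises at R3 were lost without replicate number 1, 2 or 3. Most of the list moved little. In the mean of the 7 regions, 123 of the 159 probe sets lay within 0.2 of the controls on the log2 scale at H3 and 120 at R1, and the median change was 0.02 at H3 and -0.004 at R1, against -0.006 and -0.02 over all probe sets.

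Calls were made by limma with Benjamini-Hochberg adjustment over all 45037 probe sets, and a probe set is said to have risen, fallen or changed only where the adjusted p lay under 0.05. Each region was fitted alone with 3 arrays per group, and the mean of the 7 regions was fitted with 3 values per time point, each the mean of the arrays that share a replicate number. The labels do not say that a number marks a mouse. Over the 7 regions the F-test across time called 60 of 1113 tests of splicing factors (5.39%), where it called 0.96% of all probe sets. Of the 159 splicing factor probe sets, 134 were brighter than the median probe set, whereas the shares of all probe sets include the dim ones. The part of brightness in this and the later comparisons with all probe sets was not tested. At H3, 6 tests in single regions were called higher against a background of 0.157% and 19 lower against 0.153%, and at R1 5 were higher against 0.158% and 20 lower against 0.25%. None was called at H1, where 0.0276% of all tests were higher and 0.00254% lower, nor at R3, where 0.00634% were higher and 0.00254% lower, and at unadjusted p under 0.05 there were 95 (8.54%) and 127 (11.4%), against 5.27% and 6.46% of all tests. The calls at H3 came from 7 genes and those at R1 from 8, and Rbm5 alone gave 16 of the 25 at R1. Without replicate number 1, 2 or 3 in every group, which leaves 2 arrays per group, the F-test called 0, 0 and 2 of the 1113 tests, and at H3 and R1 the calls higher were 0 each time and those lower 0, 0 and 5 at H3 and 0, 0 and 1 at R1. With single control arrays and arrays of the time point left out in turn, 12 of the 50 calls were kept every time, 8 of them of Rbm5. Without control array 1, 2 or 3 of every region, 1, 3 and 1 were higher and 11, 6 and 14 lower at H3, and 7, 1 and 4 higher and 11, 7 and 18 lower at R1. Without H3 array 1, 2 or 3 those at H3 were 1, 0 and 0 higher and 9, 8 and 11 lower, and without R1 array 1, 2 or 3 those at R1 were 2, 1 and 1 higher and 12, 12 and 13 lower.

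The mean of the 7 regions allowed smaller changes to be called. At H3, 10 splicing factor probe sets rose (background 1.2%) and 11 fell (2.16%), at R1 12 rose (1.65%) and 15 fell (3.83%), and at R3 10 rose (0.355%) and none fell (0.426%), with 38 (23.9%) at unadjusted p under 0.05 at R3, against 11.4% of all. At H1 no probe set rose (0.0977%) and 1 fell (0.06%), with 23 (14.5%) at unadjusted p under 0.05, against 7.47% of all. No call was made at R6, R12 or R24, where 11.3%, 26.4% and 6.92% of the splicing factor probe sets (18, 42 and 11) had an unadjusted p under 0.05, against 7.41%, 9.22% and 5.67% of all. Together 41 probe sets of 21 genes were called at H1, H3, R1 or R3, and 19 genes were not, among them Srsf1, Srsf2, Tra2b, Rbm25, Hnrnpc, Hnrnph1, Hnrnpu, U2af1, U2af2 and Snrnp70. Without replicate number 1, 2 or 3 in every group, 4, 3 and 3 rose and 8, 6 and 8 fell at H3, 11, 1 and 5 rose and 5, 3 and 8 fell at R1, and none rose at R3. With single values left out, 6 rose and 5 fell at R1 and 3 rose at R3 without control value 2, 6 rose at H3 without H3 value 2, and 9, 8 and 6 fell at R1 without R1 value 1, 2 or 3. Of all 59 calls in the mean, 10 were kept in every one of these fits, namely the falls at H3 of Tra2a 1429680_at, 1442886_at and 1455933_at, Hnrnpdl 1424252_at, Rbmx 1416355_at and Rbm5 1438069_a_at, the falls at R1 of Rbm5 1438069_a_at, 1452186_at and 1452187_at, and the rise at R1 of Srsf6 1416721_s_at.

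**Figure D1:**
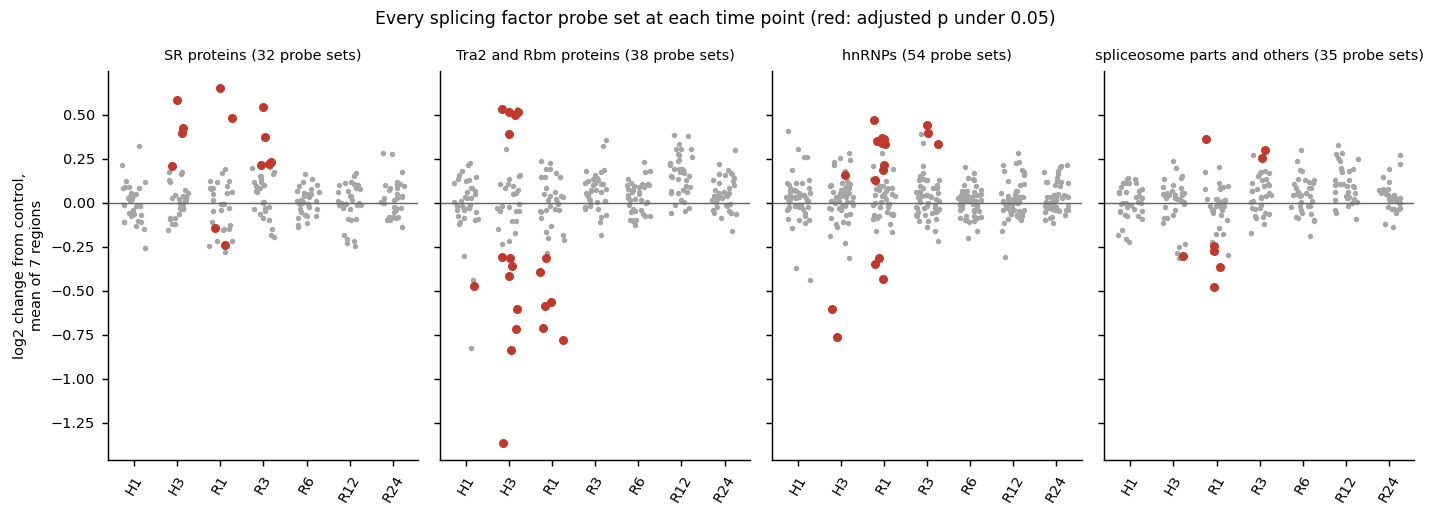
Log2 change from control of each of the 159 splicing factor probe sets in the mean of the 7 regions, by class and time point, with 1 point per probe set and red for an adjusted p under 0.05. Red points lie at H3, R1 and R3, with 1 at H1, and none stand at R6, R12 or R24.

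Among the SR proteins, 4 of 32 probe sets rose (background 1.2%) and none fell (2.16%) at H3. At R1 2 rose (1.65%) and 2 fell (3.83%), and at R3 5 rose (0.355%). Srsf5, whose product promotes exon inclusion and helps carry transcripts out of the nucleus, is measured by 1 probe set, 1423130_a_at. Its intensity over the 21 control arrays was 700.3 at the lowest, 1019 at the median and 1679 at the highest, and over the 21 H3 arrays 1049, 1657 and 2071. At R1 the values were 1080, 1698 and 2228. Over all regions the groups overlapped, yet within a region all 3 H3 arrays stood above all 3 controls in 7 of 7 regions and all 3 R1 arrays in 6. In the mean of the regions Srsf5 rose by 0.58 at H3 (SE 0.10, adjusted p = 0.00136), 0.65 at R1 (SE 0.10, adjusted p = 0.000389) and 0.54 at R3 (SE 0.10, adjusted p = 0.0105), and at R6 its change was -0.09. In single regions it rose at R1 in hippocampus, striatum and thalamus. In striatum the R1 arrays read 1691, 1789 and 2228 and the controls 957.1, 775.3 and 1490, a rise of 0.86 (SE 0.17, adjusted p = 0.028). Without replicate number 2 the adjusted p of the mean was 0.104 at H3, 0.0583 at R1 and 0.34 at R3, and at R3 it was also over 0.05 without number 1 or 3 (0.103 and 0.125) or control value 2 (0.0587). The calls in hippocampus, striatum and thalamus were lost without the second control array (adjusted p = 0.229, 0.178 and 0.179) and without 3 or 4 of the other 5 arrays.

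Srsf6, an SR protein that regulates alternative exons in brain and elsewhere, has 4 probe sets, and they did not move alike. At 1416721_s_at the 21 controls had a lowest, median and highest intensity of 149, 229.9 and 357, the H3 arrays 236, 328 and 455, and the R1 arrays 266, 338 and 461. This probe set rose by 0.39 at H3, 0.48 at R1 and 0.37 at R3 (each SE 0.06, adjusted p = 0.00049, 5.75e-05 and 0.0047). At 1448454_at, a brighter one of the same gene, the controls had 311, 382 and 547 and the R1 arrays 306, 369 and 447, and the change was -0.05 (SE 0.05, adjusted p = 0.70). The difference between 1416721_s_at and the mean of the other 3 was 0.27 at H3 (adjusted p = 0.0129) and 0.39 at R1 (adjusted p = 0.00061). In thalamus 1416721_s_at rose by 0.69 at R1 (SE 0.10, adjusted p = 0.00449), with arrays at 351, 338 and 423 against controls at 232, 218 and 217. The rises of 1416721_s_at at R1 in the mean and in thalamus were kept with each value or array left out, whereas that at H3 was lost without replicate number 2 (adjusted p = 0.078) and that at R3 without number 1, 2 or 3 (adjusted p = 0.0609, 0.291 and 0.16). A second Srsf6 probe set, 1447898_s_at, also rose at H3 in the mean. Its change was 0.15 to 0.29 over 21 refits, and the call was lost in 10 of them.

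Srsf11, a splicing factor related to the SR proteins, rose at 1430077_at by 0.43 at H3 (SE 0.08, adjusted p = 0.00479) and was back at -0.01 at R1, and the difference of R1 from H3, -0.43, was itself called (adjusted p = 0.00741). Its brightest probe set, 1452371_at, was at 0.02 at H3 and -0.04 at R1. Srsf3, the smallest SR protein, rose late, by 0.22 and 0.21 at R3 at 2 of its 6 probe sets (1416150_a_at, adjusted p = 0.0342, and 1416151_at, adjusted p = 0.00669). Srsf10, which represses splicing when it loses its phosphates after heat shock, fell by 0.24 at R1 at 1423982_at (SE 0.06, adjusted p = 0.0299), and its other 3 probe sets had changes of -0.22 to -0.28 that were not called. Srsf4 fell by 0.15 at R1 (SE 0.04, adjusted p = 0.0445). The SR probe set nearest to no change at both times was 1457136_at of Srsf1, which at a mean intensity of 9.75 lay under the constant of 16, and the 6 brighter probe sets of Srsf1 lay between -0.12 and 0.05 at H3 with none called. Without replicate number 2 the calls of Srsf11, Srsf3, Srsf10 and Srsf4 were all lost (adjusted p = 0.128, 0.269 and 0.294, 0.547, and 0.501), and those of Srsf10, Srsf4 and Srsf3 1416150_a_at also with each array centred on its median (adjusted p = 0.0845, 0.242 and 0.053).

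**Figure D2:**
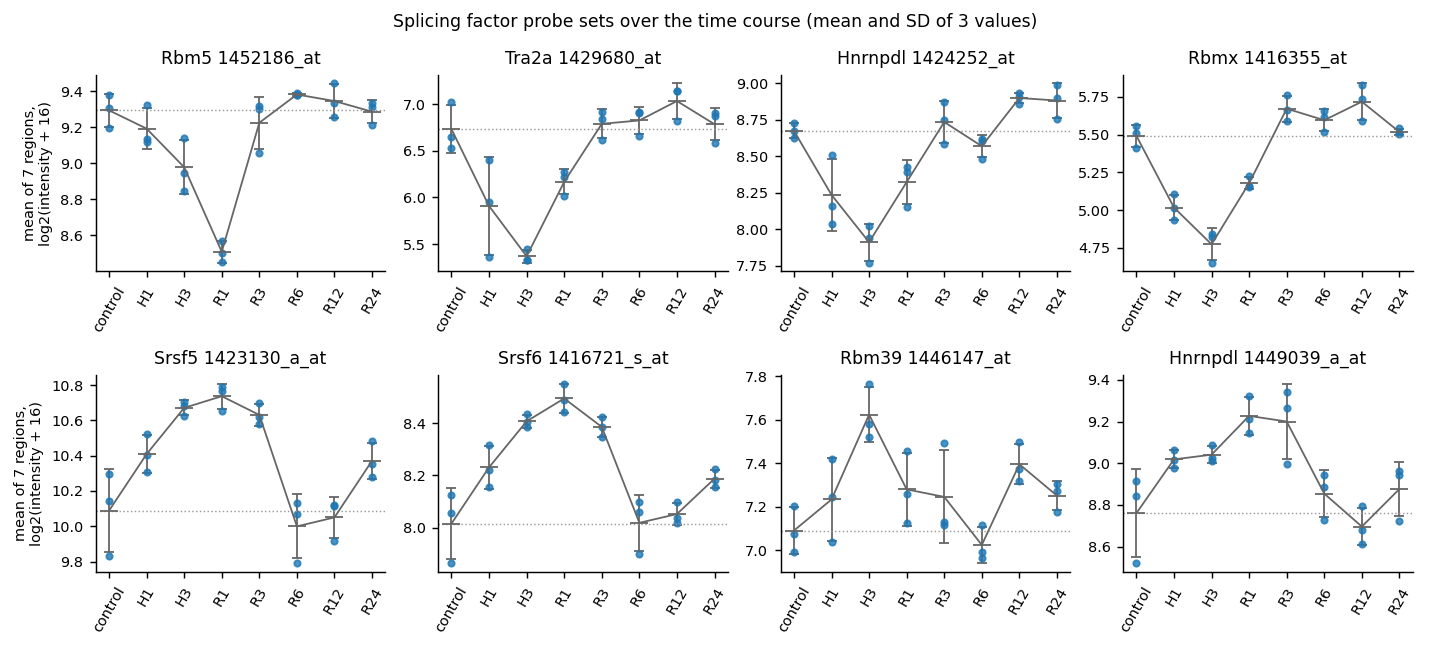
Mean of the 7 regions as log2(intensity + 16) for 8 probe sets over the 8 groups, with 3 values per group as points and their mean and SD as bars, and the control mean as a dotted line. Tra2a 1429680_at, Hnrnpdl 1424252_at and Rbmx 1416355_at are lowest at H3, Rbm5 1452186_at is lowest at R1, and Srsf5 and Srsf6 are highest at R1.

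Of the 38 probe sets of the Tra2 and Rbm proteins, 5 rose (background 1.2%) and 8 fell (2.16%) at H3. At R1 none rose (1.65%) and 6 fell (3.83%). Rbm5, an RNA-binding protein that acts in exon definition and in the splicing of apoptosis genes, gave the most calls of the list. At its brightest probe set, 1452186_at, the 21 control arrays had a lowest, median and highest intensity of 459, 629 and 808, the H3 arrays 382, 479 and 639, and the R1 arrays 263, 357 and 436. Every R1 array of every region lay below every control array of all 7 regions. At R3 the values were 415, 608 and 741, again in the range of the controls. In striatum the control arrays read 629.8, 682 and 703, the R1 arrays 357.0, 377 and 357.3, and the R3 arrays 682, 741 and 695. The fall at R1 was called in all 7 regions and ran from -0.86 in striatum to -0.68 in thalamus on the log2 scale, with an adjusted p of 0.00241 in cerebellum to 0.014 in thalamus. Averaged over the regions, 1452186_at fell by 0.78 at R1 (SE 0.08, adjusted p = 6.6e-06), and by 0.32 at H3 (SE 0.08, adjusted p = 0.0267). From H3 to R1 it fell by 0.46, which was called too (adjusted p = 0.00227). The call at R1 in the mean was kept in every fit, and those in 5 regions with each array left out. That in cortex was lost without control array 2 or R1 array 1 (adjusted p = 0.0648 and 0.0545), that in thalamus without control array 1 or 2 or R1 array 2 or 3 (adjusted p = 0.0713, 0.10, 0.0602 and 0.0548), and that at H3 in the mean without replicate number 1, 2 or 3 (adjusted p = 0.0732, 0.542 and 0.0939), control value 1 or 2 or H3 value 2 or 3.

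The second Rbm5 probe set, 1452187_at, fell at R1 in 6 regions and by 0.71 in the mean (SE 0.08, adjusted p = 1.7e-05), and 1438069_a_at fell in 3 regions and by 0.56 in the mean (SE 0.07, adjusted p = 7.5e-05). The other 2 probe sets were not called. At 1456262_at, with 73.9, 135 and 174 over the controls and 65.3, 113 and 178 over the R1 arrays, the change was -0.18, and at 1441319_at, whose mean intensity of 15.8 lies at the constant, it was 0.22. Rbm5 at 1452186_at and 1452187_at differed at R1 from the mean of the gene's other probe sets by -0.47 and -0.39 (adjusted p = 0.00234 and 0.0024). Over the 24 means of time point and replicate number, the probe sets of other genes most like Rbm5 1452186_at were those of Cep350, Plekha8, Ptpn12, Bdp1 and St8sia4, with Pearson r of 0.982, 0.971, 0.966, 0.962 and 0.96. Of the 9 calls of 1452187_at and 1438069_a_at in single regions at R1, those in striatum were kept with each array left out, and the other 7 were lost without the second control array (adjusted p = 0.0701 to 0.225).

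**Figure D3:**
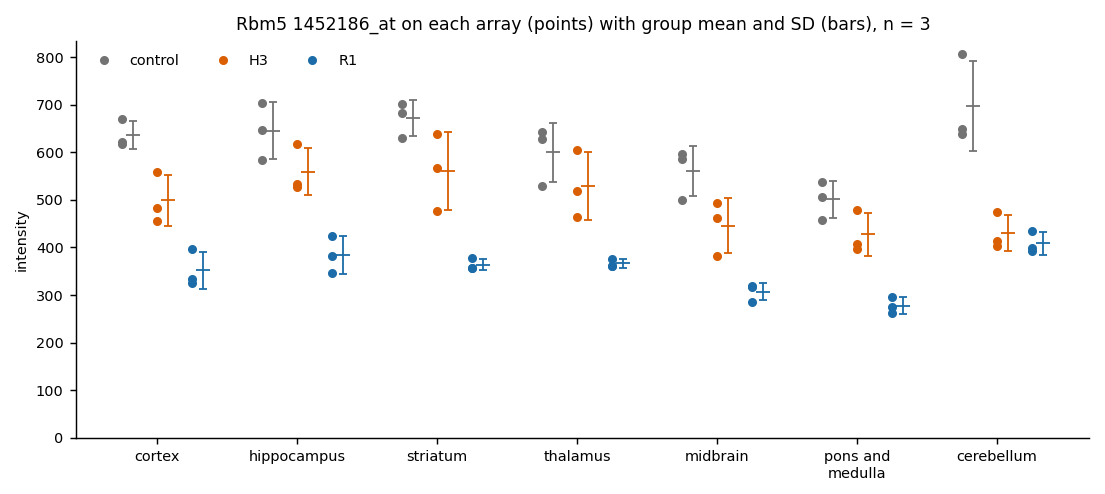
Intensity of Rbm5 1452186_at on each control, H3 and R1 array of the 7 regions, with group mean and SD as bars (n = 3). All R1 arrays, the highest at 436, lie below all control arrays, the lowest at 459, and in each region the mean of the H3 arrays lies between those groups.

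Tra2a, which binds exonic enhancers beside the SR proteins, had the largest change of the list. At 1429680_at the 21 control arrays had 33.6, 90.6 and 182 as lowest, median and highest intensity, the H1 arrays 12.8, 50.2 and 87.6, the H3 arrays 10.8, 23.9 and 52.1, and the R1 arrays 30.8, 55.9 and 103. The H3 arrays lay below the controls without overlap in 6 of 7 regions. Averaged over the regions, this probe set fell by 1.36 at H3 (SE 0.18, adjusted p = 1.0e-04), and between H3 and R1 it rose by 0.80 (adjusted p = 0.0234). In cerebellum the controls read 93.6, 182 and 83.5 and the H3 arrays 19.7, 49.96 and 15.5, and it fell by 1.62 (SE 0.37, adjusted p = 0.0368). The fall at H3 was also called in midbrain and in pons and medulla. At 1442886_at the gene fell by 0.84 at H3 (SE 0.11, adjusted p = 8.2e-05) and by 0.59 at R1 (SE 0.11, adjusted p = 0.00234), with calls at H3 in hippocampus, striatum, thalamus, and pons and medulla, and at 1455933_at it fell by 0.61 at H3 (SE 0.09, adjusted p = 0.000197). The falls at H3 in the mean were kept in every fit, and that of 1442886_at at R1 was lost without replicate number 2 (adjusted p = 0.129). All calls of Tra2a at H3 in single regions were lost without the second control array, with an adjusted p of 0.194 in cerebellum, 0.0502 in midbrain and 0.0604 in pons and medulla for 1429680_at and 0.135 to 0.258 for 1442886_at, and in cerebellum also without control array 1 or H3 array 1 or 3.

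The brightest Tra2a probe set showed none of this. At 1454725_at the controls had 156, 231 and 347 as lowest, median and highest intensity and the H3 arrays 167, 227 and 287, a change of -0.03 (adjusted p = 0.96). In cerebellum its controls read 225.5, 347 and 231 and its H3 arrays 287, 236 and 242. The H3 values of 1429680_at against the mean of the other Tra2a probe sets differed from control by -1.02 (adjusted p = 0.000532), and those of 1454725_at by 0.59 (adjusted p = 0.000323). Tra2b, the close relative of Tra2a, was not called at any of its 5 probe sets, which lay between -0.11 and 0.11 at H3. The probe set nearest to no change in this class was 1459753_x_at of Tra2a, with a mean intensity of 6.03, where a change could not be seen.

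Rbmx, an hnRNP-like protein encoded on the X chromosome, was the single gene of the list called at H1. At 1416355_at the controls had 12.7, 28.4 and 51.8 as lowest, median and highest intensity, the H1 arrays 8.10, 17.6 and 22.4 and the H3 arrays 3.51, 11.4 and 22.7, close to the constant of 16. The regional mean of this probe set fell by 0.48 at H1 (SE 0.07, adjusted p = 0.00115), where Tra2a 1429680_at had a change of -0.82 that was not called (adjusted p = 0.085) and that was not tested against it, by 0.72 at H3 (SE 0.07, adjusted p = 1.5e-06) and by 0.31 at R1 (SE 0.07, adjusted p = 0.00571). The falls at H3 were called in cortex, striatum and cerebellum, where the H3 arrays read 11.3, 14.7 and 3.51 and the controls 33.7, 51.8 and 26.6. Rbmx 1426863_at fell by 0.36 at H3 (SE 0.09, adjusted p = 0.0366). At 1416354_at, the brightest, the controls had 131, 210.2 and 322 and the H3 arrays 163, 226 and 348, a change of 0.05 (adjusted p = 0.89), and at R1 its change was 0.24 (adjusted p = 0.12). Its difference from the other Rbmx probe sets at H3 was 0.47 (adjusted p = 0.0137), and that of 1416355_at was -0.56 (adjusted p = 9.0e-05). For 1416355_at the fall at H3 was kept in the mean in every fit and in cerebellum with each single array left out, and those at H1 and R1 were lost without replicate number 1 (adjusted p = 0.125 and 0.116) or 2 (adjusted p = 0.296 and 0.203). The call in cortex was lost without control array 1 or 3 or H3 array 2 or 3 (adjusted p = 0.107 to 0.169), that in striatum without any but H3 array 3 (adjusted p = 0.0599 to 0.144), and that of 1426863_at without number 1, 2 or 3 (adjusted p = 0.159, 0.408 and 0.083).

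Rbm39, a coactivator and splicing factor related to U2AF, went the other way at H3. Of its 12 probe sets, 5 rose, by 0.39 to 0.53, and none was called at R1. At 1446147_at the controls had 87.9, 106 and 273 as lowest, median and highest intensity, the H3 arrays 121, 169 and 479 and the R1 arrays 85.3, 132 and 348. In hippocampus the controls read 97.2, 104 and 98.1 and the H3 arrays 172, 216 and 186, all above the controls, a rise of 0.84 (SE 0.16, adjusted p = 0.0285). Over the regions, 1446147_at rose by 0.53 (SE 0.11, adjusted p = 0.00562) at H3. At 1426671_a_at, the brightest probe set of the gene, the hippocampal controls read 482, 532 and 500.2 and the H3 arrays 535, 503 and 572, and the change in the mean was 0.05 (adjusted p = 0.82). The 5 risers include 2 with names ending in x_at, whose probes can also match other sequences. Between H3 and R1, Rbm39 1438398_at fell by 0.46 (adjusted p = 0.0442). Rbm25, which acts with the U1 particle, had no call at its 6 probe sets. The rise of 1446147_at in the mean was lost without replicate number 1 or 3 (adjusted p = 0.0856 and 0.0801) and that in hippocampus without any array but the first at H3 (adjusted p = 0.0933 to 0.163).

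**Figure D4:**
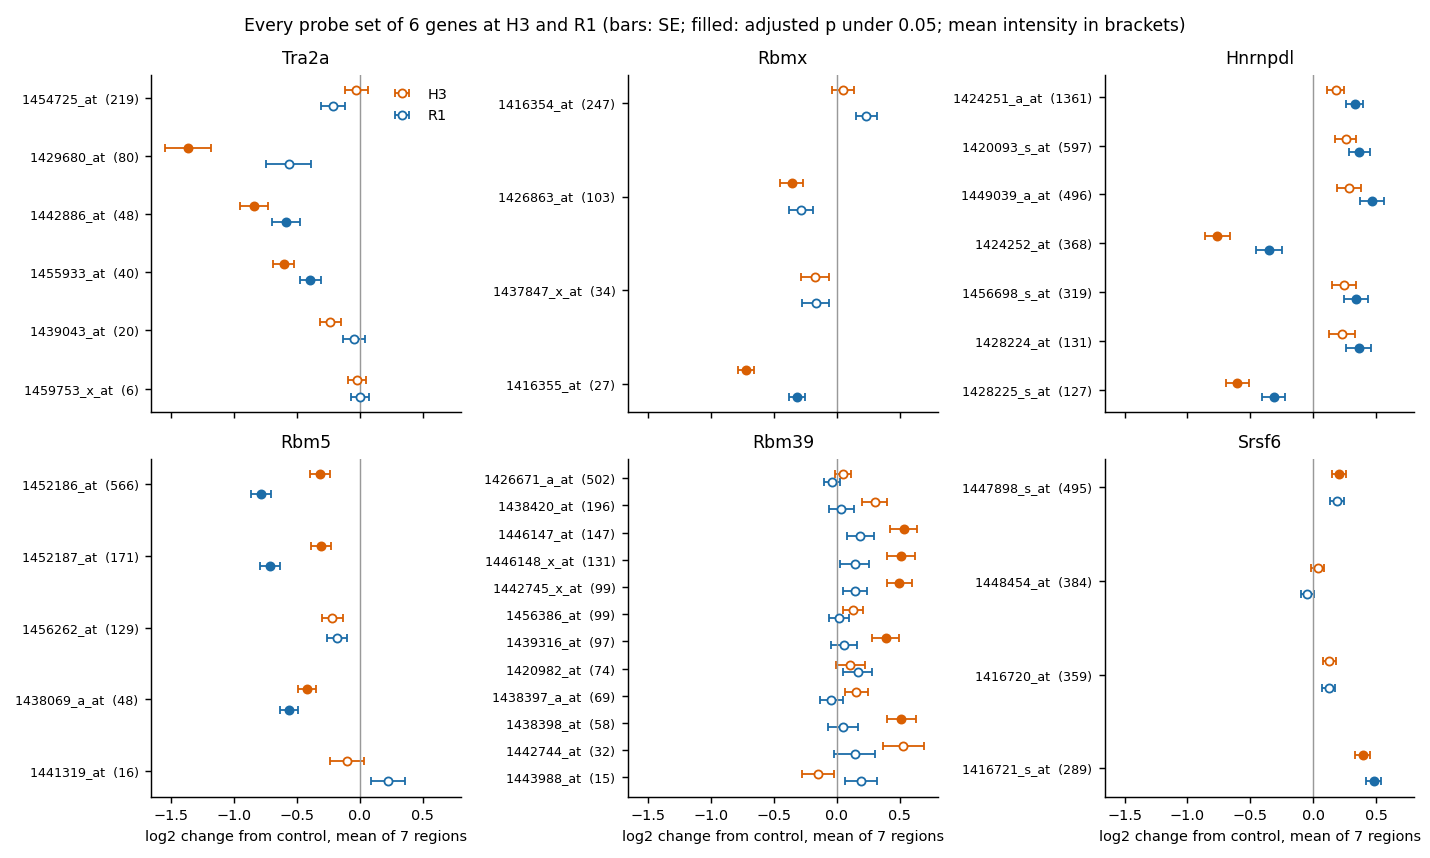
Log2 change from control at H3 (orange) and R1 (blue) in the mean of the 7 regions for every probe set of Tra2a, Rbmx, Hnrnpdl, Rbm5, Rbm39 and Srsf6, ordered by mean intensity, with SE as bars and filled points for an adjusted p under 0.05. At H3 the brightest probe sets of Tra2a, Rbmx and Rbm39 lie near 0 while dimmer ones of the same genes were called. At R1 the brightest of Rbmx lies at 0.24 and was not called. Hnrnpdl splits into 5 probe sets above and 2 below 0.

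Among the 54 hnRNP probe sets, 1 rose (background 1.2%) and 2 fell (2.16%) at H3, and 9 rose (1.65%) and 3 fell (3.83%) at R1. At R3 3 rose (0.355%). Hnrnpdl, a relative of the AU-rich element binding protein Hnrnpd, held 7 of these 12 calls at R1 and moved in both directions. At 1424252_at the 21 controls had 268, 382 and 627 as lowest, median and highest intensity, the H1 arrays 197, 281 and 407, the H3 arrays 143, 234 and 286 and the R1 arrays 202, 299.6 and 474. The H3 arrays lay below the controls without overlap in 7 of 7 regions. In cortex the controls read 343, 334 and 373 and the H3 arrays 151, 174 and 143, and it fell by 1.09 (SE 0.14, adjusted p = 0.000801), and falls at H3 were also called in striatum, midbrain and cerebellum. In the mean of the regions 1424252_at fell by 0.76 at H3 (SE 0.10, adjusted p = 0.000108) and by 0.35 at R1 (SE 0.10, adjusted p = 0.0482), and 1428225_s_at fell by 0.61 at H3 (SE 0.09, adjusted p = 0.000363) and by 0.32 at R1 (SE 0.09, adjusted p = 0.0452). For 1424252_at the fall at H3 was kept in the mean in every fit and in cortex and cerebellum with each single array left out, that in midbrain was lost without any array but the first at H3 (adjusted p = 0.0702 to 0.123) and that in striatum without control array 1 or 3 or H3 array 2 or 3 (adjusted p = 0.0806 to 0.112). At R1 the falls of both probe sets were lost in 11 of 12 fits with a number or value left out, at a constant of 1 (adjusted p = 0.0711 and 0.0617) and with each array centred on its median (adjusted p = 0.0655 and 0.0583).

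The other 5 Hnrnpdl probe sets rose at R1, by 0.33 to 0.47. At 1449039_a_at the controls had 296, 392.2 and 656 as lowest, median and highest intensity, the H3 arrays 385, 476 and 827 and the R1 arrays 409, 554 and 883. In cortex this probe set read 478, 389.9 and 418 in the controls and 508, 633 and 554 at R1, all above the controls. Its regional mean rose by 0.47 at R1 (SE 0.10, adjusted p = 0.00547), and the brightest, 1424251_a_at, with 898, 1173 and 1824 over the controls and 1155, 1473 and 1859 over the R1 arrays, rose by 0.33 (SE 0.07, adjusted p = 0.00529). Hnrnpdl was the only gene of the list with a probe set called higher and another called lower at the same time. At H3 all 7 of its probe sets differed from the mean of the gene's others, from -0.85 at 1424252_at (adjusted p = 9.0e-05) to 0.36 at 1449039_a_at (adjusted p = 0.00246). Without replicate number 2 the 5 rises at R1 were lost (adjusted p = 0.291 to 0.584). The 3 rises of hnRNPs at R3 were those of Hnrnpdl 1420093_s_at, 1424251_a_at and 1449039_a_at. They were lost without replicate number 1, 2 or 3 (adjusted p = 0.0681 to 0.512).

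The remaining hnRNP calls were smaller. Hnrnpa2b1, which takes part in the transport of transcripts in neurons and oligodendrocytes, fell by 0.44 at R1 at 1433830_at (SE 0.10, adjusted p = 0.0139), while its brightest probe set, 1420365_a_at, was at -0.03. Hnrnpa1 rose by 0.35 at R1 at 1436549_a_at (SE 0.09, adjusted p = 0.025), and 3 further probe sets annotated to it and another gene were not used. Hnrnpab rose at 1448144_at, by 0.16 at H3 (adjusted p = 0.0189) and 0.19 at R1 (adjusted p = 0.00441), and Hnrnpk by 0.21 at R1 at 1423684_at (SE 0.05, adjusted p = 0.00949), while its 2 brighter probe sets were at 0.06 and 0.09. The hnRNP nearest to no change was Hnrnpm, at -0.005 (SE 0.06) at H3 and -0.008 (SE 0.06) at R1. All of these calls were lost without replicate number 2 (adjusted p = 0.211 to 0.39).

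Of the 35 probe sets of spliceosome parts and other factors, none rose (background 1.2%) and 1 fell (2.16%) at H3. At R1 1 rose (1.65%) and 4 fell (3.83%), and at R3 2 rose (0.355%). Luc7l2, the mammalian form of a U1 particle protein of yeast, fell by 0.48 at R1 at 1436767_at (SE 0.11, adjusted p = 0.0133). Its control arrays had 226, 363 and 539 as lowest, median and highest intensity and its R1 arrays 176, 254 and 415. The other 7 Luc7l2 probe sets lay between -0.04 and 0.07 at R1, and 1437761_at, at 0.02 at H3 and 0.007 at R1, was the one of this class nearest to no change. Son, a large protein of nuclear speckles, rose by 0.36 at R1 at 1437924_at (SE 0.07, adjusted p = 0.00446), with 103, 118 and 147 over the controls and 115, 161 and 234 over the R1 arrays, and its other 6 probe sets lay between -0.07 and 0.08 at R1. Rsrp1, an arginine and serine rich protein, fell by 0.31 at H3 and 0.25 at R1 at 1448538_a_at (each SE 0.06, adjusted p = 0.00464 and 0.0163). Prpf38b fell at R1 by 0.37 at 1452869_at (SE 0.09, adjusted p = 0.0196) and 0.28 at 1428674_at (SE 0.08, adjusted p = 0.048). At R3, Sf3b1, the U2 subunit that holds the branch point, rose by 0.25 at 1418562_at (adjusted p = 0.0226) and Luc7l3 by 0.30 at 1437570_at (adjusted p = 0.0146). All of these calls were lost without replicate number 2 (adjusted p = 0.068 to 0.677).

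Differences between probe sets of a gene were then tested as such, in a test added after the values had been seen. In each of the 24 means a probe set was set against the mean of its gene's other probe sets. At H3, 22 of 151 splicing factor probe sets (14.6%) differed, from 8 genes, where 2.16% of all 25762 probe sets of genes with 2 or more did, and at R1 17 (11.3%), from 10 genes, against 1.86%. A probe set that does not move also differs when its neighbours do, and 10 of the 22 and 12 of the 17 were called by themselves. Among the 22 and the 17, 2 each had a mean intensity under 16. Of the 9 genes with 2 or more probe sets and a call at H3, none had all its probe sets called, and of the 14 at R1 only Hnrnpdl had. Without replicate number 1, 2 or 3 the counts were 10, 3 and 11 at H3 and 5, 2 and 10 at R1, without control value 2 they were 12 and 9, and without R1 value 2 that at R1 was 10.

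H3 and R1 were also compared directly in the mean of the regions. Of the splicing factors 3 were higher at R1 than at H3 (background 0.744%), namely Tra2a 1429680_at, Rbmx 1416355_at and Hnrnpdl 1424252_at, each of which had its lowest mean at H3. Lower at R1 than at H3 were 4 (1.09%), namely Rbm5 1452186_at and 1452187_at, Srsf11 1430077_at and Rbm39 1438398_at. Of these 7 calls the counts without replicate number 1, 2 or 3 were 0, 2 and 0, without H3 value 1 or 3 they were 3 and 4, and without R1 value 3 it was 3.

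No difference in response between the regions was detectable. No splicing factor changed differently between regions at H3, where 0.0222% of all probe sets did, or at R1, where 0.135% did, and 5 (3.14%) had an unadjusted p under 0.05 at each time, against 4.7% and 6.62% of all. The smallest adjusted p was 0.30, for Son 1456630_x_at at R1. In simulated data with changes in cerebellum alone at H3, this test recovered 24% of 1.5-fold and 62% of 2-fold changes. Smaller differences between regions could therefore have been missed. Cerebellum held the most calls at H3, 3 higher (background 0.415%) and 8 lower (0.533%), and at R1 it held 1 higher (0.488%) and 3 lower (0.591%). The second cerebellar control array read highest of the 3 for several of these, as for Rbm5 1452186_at (649, 808 and 638) and Tra2a 1429680_at.

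In the controls, many splicing factors stood higher in cerebellum than in the other regions. Of 159 probe sets, 84 were higher in cerebellum than in the other 6 regions (52.8%), where 16.2% of all probe sets were, and none was lower, where 14% of all were. These 84 belong to 32 of the 40 genes, and Srsf9, Tra2a, Hnrnpab, Hnrnpc, Hnrnph2, Hnrnpl, U2af1 and U2af2 had none. A difference between regions of any kind was not particular to the list, as the F-test over the 7 regions called 77 (48.4%) against 41.4% of all probe sets. The median difference between cerebellum and the mean of the others was 0.31, against -0.002 over all probe sets, and cerebellum was the highest region for 106 of the 159 (66.7%), against 23% of all probe sets. The 3 lists of other splicing genes described below leaned the same way. Of the kinases 9 of 27 were higher in cerebellum and 2 lower, of the core spliceosome 22 of 84 and 4, and of the other regulators 51 of 142 and 18. Their median differences were 0.12, 0.16 and 0.18. Granule cells make up most of the cells of the cerebellum. Cell density, the share of each cell type and the level per cell cannot be told apart in such tissue samples. Without replicate number 1, 2 or 3, 65, 42 and 53 were called higher in cerebellum and 38, 34 and 39 by the F-test.

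The largest range was that of Hnrnpu, a scaffold protein of the nucleus that binds chromatin-associated RNA. At 1434390_at the 18 arrays of the other regions had a lowest, median and highest intensity of 34.8, 65.5 and 97.0 and the 3 cerebellar arrays 192, 263 and 168, with no overlap, a difference of 1.47 (SE 0.15, adjusted p = 3.2e-07). Luc7l3 1437570_at followed, with 34.2, 49.5 and 68.7 in the others and 127 to 168 in cerebellum (difference 1.31, SE 0.10, adjusted p = 7.4e-09). Srsf1 1428100_at, of a founding member of the SR proteins, had 136, 189 and 257 in the others and 327 to 391 in cerebellum (0.88, SE 0.08, adjusted p = 7.3e-08). Rbm5 1441319_at had 3.81, 8.55 and 20.3 in the others and 27.2 to 36.4 in cerebellum (0.89, SE 0.14, adjusted p = 5.6e-05), levels near or under the constant of 16, at which the size of the difference depends on that constant. Hnrnpa2b1 1433829_a_at, lowest in cortex, had 244, 391.99 and 549 in the others and 533 to 745 in cerebellum, which overlap (0.64, SE 0.13, adjusted p = 0.00113). In 40 of the 159 probe sets (25.2%) all 3 cerebellar arrays lay above all 18 others, as in 6.64% of all probe sets.

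**Figure D5:**
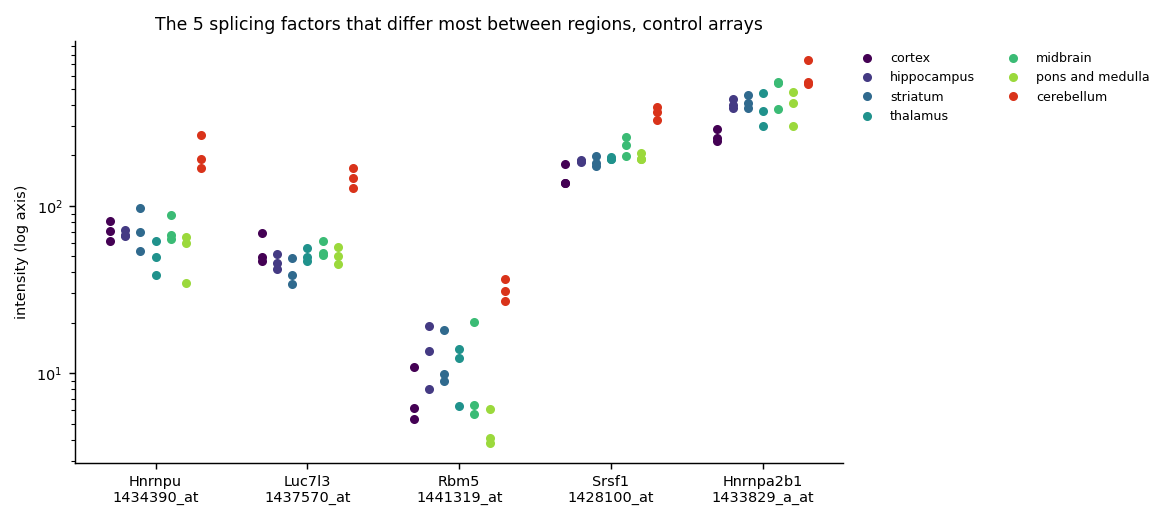
Intensity (log axis) on each of the 21 control arrays for the 5 splicing factors with the largest range between regions, coloured by region. Cerebellum (red) lies above every other array for Hnrnpu, Luc7l3, Rbm5 1441319_at and Srsf1, and overlaps them for Hnrnpa2b1.

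Other splicing genes were taken from 3 lists chosen by function. Over all probe sets in the mean of the regions, 1.2% rose and 2.16% fell at H3, and 1.65% rose and 3.83% fell at R1. The counts of the lists were not tested against these shares. Of 27 probe sets of SR protein kinases and related kinases, 1 rose and 3 fell at H3, and none rose and 4 fell at R1. Clk1, a nuclear kinase that phosphorylates SR proteins, fell by 1.08 at H3 (SE 0.08, adjusted p = 1.2e-07) and 0.55 at R1 (SE 0.08, adjusted p = 0.000241) at 1426124_a_at, and Clk2 fell by 0.44 at R1 (SE 0.06, adjusted p = 0.000148). Of 84 probe sets of the core spliceosome, 1 rose and none fell at H3, and 5 rose and 3 fell at R1, with Snrpd3 1422885_at rising at both times, by 0.26 and 0.23. Of 142 probe sets of other regulators, 8 rose and 4 fell at H3 and 8 rose and 6 fell at R1. Among these Tia1, a protein of stress granules that also aids U1 binding, fell by 0.86 at H3 at 1431708_a_at (SE 0.10, adjusted p = 3.2e-05) while its brightest probe set was at 0.02. Qk, which directs splicing in oligodendrocytes and astrocytes, rose by 0.65 at H3 at 1429735_at (SE 0.09, adjusted p = 0.000108). The cold-induced protein gene Cirbp rose by 0.68 at R1 (SE 0.12, adjusted p = 0.0014).

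The samples were checked by the same fit. All 7 probe sets of Ddit4, Adm, Vegfa and Depp1, which rise with low oxygen, rose at H3. Of 104 probe sets of markers of oligodendrocytes, astrocytes, microglia, endothelium, neurons, choroid plexus, meninges, cerebellar neurons and striatal neurons, 1 was called at H3 and 3 at R1. These were of Opalin, higher at both times, and Syt1, lower at R1, and their part in the results above was not tested. Over all probe sets 1.2% rose and 2.16% fell at H3, and 1.65% rose and 3.83% fell at R1. The summed level of the oligodendrocyte markers ran from 7815 to 14691 over the control arrays, 8419 to 15126 at H3 and 8256 to 15029 at R1. Among the marker lists, choroid plexus had the largest median change, 0.14 at H3 and 0.34 at R1 over 8 probe sets, none called. At the brightest probe set of each gene these medians were 0.0007 and 0.13. Its summed level ran from 152 to 5572 over the controls, 209 to 6535 at H3 and 223 to 6544 at R1. The log2 ratio of 3' to 5' control probe sets of Gapdh had a median of -0.39 to -0.42 in each time group.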

How the data were processed

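The authors deposited linear intensities, a value per probe set for each of the 168 Mouse Genome 430 2.0 arrays. The 2% trimmed mean was 125 on every array, and 23.3 to 30.2% of the values of an array lay below 16. The methods describe GCRMA with division by the sham mean, which these values do not show, and the submitters' processing notes name GCOS 1.3. Array number and signal over background limit the precision.

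From there, 64 array control probe sets were removed and log2(intensity + 16) of the other 45037 was fitted with limma (version 3.58.1, under R 4.3.3, read with data.table, version 1.17.8), per region with 8 group means, in the mean of the 7 regions by time point and replicate number, and over all arrays, with time point and number as a random block (correlation 0.0369, and 0.0398 in the controls), for differences between regions. Those fits share 1 spread per probe set over regions. Time point, region and number came from the labels. P-values rest on the spread between the samples within a group, pooled over all groups of a fit. This spread is drawn by limma towards that of all probe sets. Symbols came from the platform annotation, in which 34945 probe sets name 1 gene, 932 several and 9160 none.

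The genes, lists and tests were chosen with earlier results of these data known. Values are given for genes called in 2 regions at 1 time or in the mean, at the probe set with most calls and at others that differ, for the 5 with the largest range in controls, for Srsf5 and Tra2a, which the study names (Srsf7, named there too, was not analysed here), and for the member of each class nearest to no change. Of the other splicing genes Clk1 and up to 3 per list are named. Promoter windows were RefSeq's. The fits were tested on simulated data. Alternatives were other pseudocounts and scalings, a filter on dim probe sets, a trended and robust spread in limma, the replicate number as a block, each replicate left out, 1 probe set per gene, and, added after the data were seen, tests without limma's shared spread and the comparison of probe sets within a gene.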

Additional observations from a re-analysis of the deposited data

How the results depend on the processing

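Every one of the 109 calls of single probe sets kept its direction in each refit made of it, up to 21 for a call in the mean of the regions. A call in a single region was refitted 6 times, only with an array left out. The refits share most arrays with the first fit, so that a reversal was unlikely from the start. An adjusted p under 0.05 was kept every time by 12 of the 50 calls in single regions and 10 of the 59 in the mean. Fits without an array have fewer samples, and for other changes of a count by over 1.5 times the cause was not tested. With replicates left out in turn, the tests called over the time course ran from 0 to 62, those in single regions at H3 from 0 to 6 higher and 0 to 18 lower, and at R1 from 0 to 7 higher and 0 to 20 lower. In the mean of the regions these ranges were 3 to 11 higher and 6 to 13 lower at H3, 1 to 15 higher and 3 to 17 lower at R1, 0 to 10 higher at R3 and 0 to 8 between R1 and H3. Probe sets that differed from the others of their gene numbered 3 to 22 at H3 and 2 to 19 at R1, levels that differed between regions 34 to 39 and levels above the other regions in cerebellum 42 to 65. The absence of calls for a change that differs between regions held in each fit made.

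With all arrays in 1 fit and a random block, the mean of the regions gave more calls, 23 higher and 17 lower at H3, 24 higher and 27 lower at R1, 21 higher at R3 and 22 between R1 and H3. Calls in single regions rose to 10 higher at H3 and 14 higher at R1 when only probe sets brighter than the median were tested, and to 12 higher at R1 with a trended and robust spread. At a constant of 1 there were 3 higher at R1 in single regions and 11 probe sets that differed from their gene's others at R1, and after quantile normalization 2 higher at R1. With tests that do not share the spread between probe sets, 3 were higher at H3. Scaling moved the median change of all probe sets by less than 0.1.

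With 1 probe set per gene, 40 in place of 159, there were 15 calls over the time course, 0 higher and 2 lower at H3 and 3 higher and 7 lower at R1 in single regions, and in the mean 2 higher and 2 lower at H3, 3 higher and 5 lower at R1, 3 higher at R3 and 1 between R1 and H3. Of those 40, 20 differed between regions in the controls, where 41.4% of all probe sets did. In cerebellum 23 were higher, where 16.2% of all probe sets were. Only the list was cut to 1 probe set per gene, and the shares for 1 probe set of every gene were not computed.

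With the replicate number as a fixed term (replicate block), single regions gave 10 higher and 24 lower at H3 and 8 higher and 24 lower at R1, and the mean gave 14 higher and 14 lower at H3, 16 higher and 19 lower at R1, 12 higher at R3 and 11 between R1 and H3. The numbers are not said to mark a mouse. Arrays sharing one deviated together, with a mean correlation of 0.025 to 0.066 between regions of a time point. For arrays of other numbers it was -0.033 to -0.012. Between time points of a region it was 0.0585 to 0.11 for the same number and -0.055 to -0.029 for other numbers. By the mean correlation, 158 of the 168 arrays were nearest to the arrays of their own number in their region. What a number marks across time points was not tested, and the main fits of single regions have no term for it. With no replicate block, 71 probe sets differed between regions in the controls and 78 were higher in cerebellum.

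With 3 arrays per group and p-values adjusted over 45037 probe sets, smaller changes than those given may have been missed, and changes of dim probe sets near the constant of 16 are understated.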
